A study of Mus musculus with 19 samples.

Results

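Lymphocyte and cytotoxic cell genes were compared across the treatments of a bulk RNA-seq study of the mouse medial prefrontal cortex. The group held 10 genes, taken by symbol from the 57010 rows of the deposited count table: Gzma, Gzmb, Prf1, Nkg7 and Klrd1 of cytotoxic cells, Cd3e of T cells, Igkc and Ighm of B cells, and the leukocyte integrin genes Itgal and Itgb7. All mice were wild type (WT), were gavaged for 8 days and were injected intraperitoneally for 5 days. Co-treated mice (n = 5) received sedanolide, a phthalide of celery seed, at 20 mg/kg by gavage, and bacterial lipopolysaccharide (LPS), a trigger of systemic inflammation, at 1 mg/kg by injection, with the gavage begun 3 days ahead of the LPS. LPS mice (n = 5) received the same LPS with saline gavage, begun the same 3 days ahead. Sedanolide mice (n = 5) received the same sedanolide with saline injections, and control mice (n = 4) received saline by both routes. Strain, sex and age are not given in the sources used here. Nothing in the labels says that the replicates of a group were separate animals, and the p-values then reflect the spread among these samples, which may be technical.

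Cytotoxic lymphocytes, chiefly natural killer (NK) cells and CD8+ T cells, kill target cells by releasing granules. Perforin, encoded by Prf1, opens pores in the target membrane, and the granzymes, serine proteases encoded by Gzma and Gzmb, enter through them and start cell death. Nkg7 encodes a membrane protein of the granules that is needed for their full release, and Klrd1 encodes CD94, which pairs with NKG2 receptors and reads a non-classical class I molecule on other cells. Cd3e encodes a signalling chain of the T cell receptor complex. Igkc and Ighm encode the constant parts of the kappa light chain and the mu heavy chain of antibodies. Itgal encodes the alpha chain of LFA-1, which pairs with the beta-2 chain of Itgb2, is carried by lymphocytes, monocytes and neutrophils, and binds the ICAM molecules of blood vessels. Itgb7 encodes the beta-7 chain, which pairs with alpha-4 or alpha-E chains on lymphocytes. Such cells are rare in a healthy brain, where they sit mainly in vessels, meninges and choroid plexus.

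The 19 libraries held between 19.08 and 24.32 M counts (M, mega). Levels are in CPM: a gene's count divided by its library's TMM-scaled total in M. Markers of cortical neurons were present in every group, with summed levels of 6400 to 7190 CPM in co-treated, 4920 to 7440 CPM in LPS, 5320 to 8190 CPM in sedanolide and 2650 to 6550 CPM in control libraries. Transcripts of the olfactory bulb, which borders this cortex, were also present in part of the libraries. Cdhr1, a cadherin gene of bulb projection neurons, stood at 57.7 to 445 CPM in 7 libraries, of which 0 were co-treated, 3 LPS, 2 sedanolide and 2 control, and at 2.29 to 9.92 CPM in the other 12. These 12 are called bulb-poor. Results of the members that change within them are given beside the value or under the dependence on processing. Genes of the marker lists were not refitted within them. In bulk tissue, fewer cells of a type and less RNA per cell cannot be told apart.

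The promoters of Gzma, Gzmb, Prf1 and Nkg7 are shown because these 4 granule genes had the largest rises after LPS among the cytotoxic members. RefSeq sequences of the assembly GRCm38.p6 were at hand for 6 of the 10 members (Gzma, Gzmb, Nkg7, Prf1, Cd3e and Itgb7), each running from 250 bases before the transcript start to 50 after it, 5′ to 3′ on the gene's own strand. The Gzma promoter lies at chr13:113100932-113101231 on the minus strand and the Gzmb promoter at chr14:56262285-56262584 on the minus strand. The Prf1 promoter lies at chr10:61297586-61297885 on the plus strand and the Nkg7 promoter at chr7:43436888-43437187 on the plus strand. Capitals mark matches, on either strand, to the RUNX letters TGTGGT, the ETS letters AGGAAG, the T-box core letters GGTGTG and the AP-1 letters TGANTCA.
Gzma promoter: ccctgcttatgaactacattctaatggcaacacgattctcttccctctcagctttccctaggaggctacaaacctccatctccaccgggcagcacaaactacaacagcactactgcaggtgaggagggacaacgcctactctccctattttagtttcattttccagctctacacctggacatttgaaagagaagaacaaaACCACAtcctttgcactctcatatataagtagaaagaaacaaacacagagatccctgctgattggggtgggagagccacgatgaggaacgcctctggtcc
Gzmb promoter: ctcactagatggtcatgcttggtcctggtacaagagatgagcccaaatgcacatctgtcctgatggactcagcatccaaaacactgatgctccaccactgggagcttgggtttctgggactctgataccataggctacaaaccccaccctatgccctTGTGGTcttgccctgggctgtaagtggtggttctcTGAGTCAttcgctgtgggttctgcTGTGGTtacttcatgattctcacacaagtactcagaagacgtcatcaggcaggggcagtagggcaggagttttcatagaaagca
Prf1 promoter: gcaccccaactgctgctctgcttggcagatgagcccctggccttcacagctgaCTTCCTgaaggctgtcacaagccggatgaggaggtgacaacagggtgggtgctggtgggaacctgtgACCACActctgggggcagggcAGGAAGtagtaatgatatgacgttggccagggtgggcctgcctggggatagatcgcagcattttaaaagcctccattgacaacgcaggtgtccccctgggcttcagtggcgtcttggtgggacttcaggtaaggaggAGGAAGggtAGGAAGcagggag
Nkg7 promoter: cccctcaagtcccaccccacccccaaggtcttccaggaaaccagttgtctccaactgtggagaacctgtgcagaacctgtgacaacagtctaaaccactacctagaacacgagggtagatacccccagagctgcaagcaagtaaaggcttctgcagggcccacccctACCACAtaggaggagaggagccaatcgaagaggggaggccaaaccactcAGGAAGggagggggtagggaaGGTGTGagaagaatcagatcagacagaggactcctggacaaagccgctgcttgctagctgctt
The RUNX letters, named for transcription factors that act in T and NK cells, were found once in the windows of Gzma, Prf1 and Nkg7 and 2 times in that of Gzmb. They were found in neither the Cd3e nor the Itgb7 window, and 16.8% of the 32851 promoters of the same length held them. The ETS letters, held by 35.4% of promoters, were found 4 times in Prf1, once in Nkg7, and 2 times each in Cd3e and Itgb7. The T-box core, held by 19%, was found once each in Nkg7 and Itgb7, and the AP-1 letters, held by 7.81%, once in Gzmb. No match shared bases with a match to another motif. A match describes the letters of the window and does not show that a factor bound there.

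**Figure D1:**
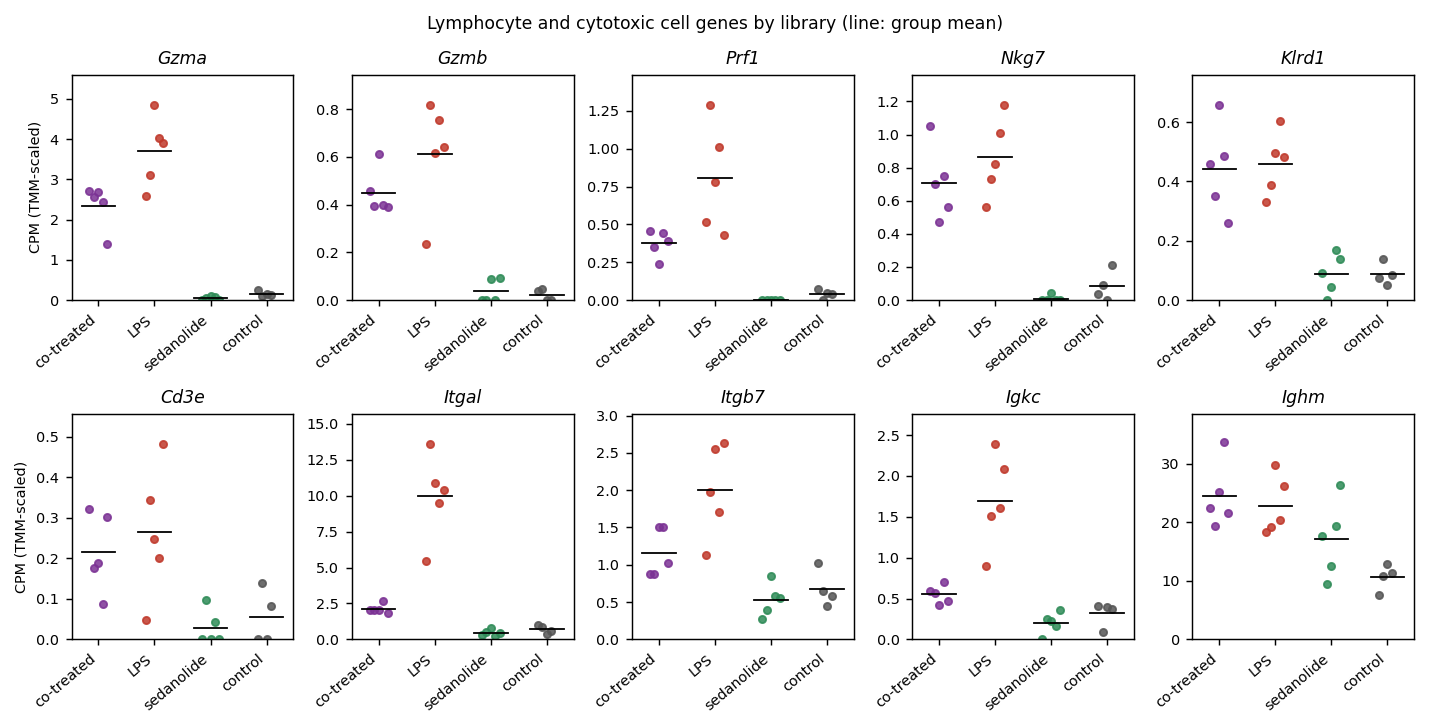
Level of each of the 10 genes in every library, in CPM on a linear axis that starts at 0, with points for libraries, a line for the group mean, and co-treated (n = 5), LPS (n = 5), sedanolide (n = 5) and control (n = 4) from left to right. The cytotoxic genes stood high in both LPS-injected groups, whereas Itgal and Igkc stood below their LPS levels in the co-treated group with no overlap.

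The comparison of LPS with control asked how repeated LPS injection changed these genes in the cortex. Of the 10 genes, 9 passed the expression filter (about 0.449 CPM in at least 4 libraries) and were tested, and Cd3e did not pass it. Gzma, Gzmb, Prf1, Nkg7 and Klrd1 had no sedanolide or control library above that level, and Igkc had 1 control library and 0 sedanolide libraries above it, so these 6 entered the test only through the LPS-injected groups, where they are high. All 9 tested genes were called higher after LPS (edgeR quasi-likelihood test, Benjamini-Hochberg adjusted p below 0.05), beside 10.9% of all 17757 genes tested (8.47% called higher). Their median log2 fold change was 3.24, against 0.00 over all genes tested. The filter in part fixed the direction of these 6 genes, and the count and the median are given as a description. Overlap between groups is given for single genes only, since its share over all genes tested was not counted.

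Gzma had 2.59, 3.10, 4.85, 4.03 and 3.91 CPM in LPS libraries, against 0.259, 0.0927, 0.147 and 0.125 CPM in control libraries. The lowest LPS library stood far above the highest control library, and the log2 fold change was 4.48 (SE 0.37, adjusted p = 7.81e-08). Gzmb had 0.235, 0.818, 0.617, 0.756 and 0.643 CPM in LPS libraries, against 0.0369, 0.0464, 0 and 0 CPM in control libraries. Control libraries held 2 Gzmb counts in all, against 66 in LPS libraries, so the size of the rise was poorly fixed: the ratio of the pooled counts was 28.6 (95% exact interval 7.61 to 241, counting error only), and the adjusted p was 7.99e-05. The lowest LPS library, replicate 1, still stood above both control libraries with a count.

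Prf1 had 0.517, 1.29, 0.781, 1.01 and 0.429 CPM in LPS libraries, against 0.0739, 0, 0.0491 and 0.0418 CPM in control libraries. The pore-forming gene was thus carried by 88 counts in LPS libraries and 4 in control libraries, and its log2 fold change was 4.07 (SE 0.53, adjusted p = 5.99e-05). Nkg7 had 0.564, 0.732, 0.823, 1.01 and 1.18 CPM in LPS libraries, against 0.0369, 0.0927, 0 and 0.209 CPM in control libraries, a log2 fold change of 3.24 (SE 0.50, adjusted p = 0.000138). Klrd1 had 0.329, 0.388, 0.494, 0.605 and 0.482 CPM in LPS libraries, against 0.0739, 0.139, 0.0491 and 0.0835 CPM in control libraries. The CD94 gene had the smallest rise of the 5 cytotoxic members, 2.34 on the log2 scale (SE 0.47, adjusted p = 0.00185). In the bulb-poor libraries (2 LPS, 2 control) its value was 1.99 and was not called (adjusted p = 0.2), and Prf1 was not tested there.

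Cd3e was close to the limit of detection. It had 0.0470, 0.345, 0.247, 0.202 and 0.482 CPM in LPS libraries, against 0, 0.139, 0 and 0.0835 CPM in control libraries, from 28 counts in all LPS and 5 in all control libraries. The groups overlapped, since LPS replicate 1 held a single count, and the mean difference of 0.209 CPM had an exact permutation p of 0.0556 (two-sided; the smallest possible is 0.0159). Without LPS replicate 1 the difference was 0.263 CPM and its exact permutation p was 0.0286, the smallest possible for that many libraries. Leaving out any other single library of the LPS or control group gave an exact permutation p of 0.0714 to 0.107. With no expression filter the edgeR log2 fold change was 2.14 (SE 0.77, adjusted p = 0.138). The gene overlaps 2 gene models, of which Gm48719 held 6 counts over all libraries and Gm48720 held 0, and whether the counting used strand is not given in the sources used here.

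Itgal, the LFA-1 alpha chain, had 5.45, 13.6, 10.9, 9.48 and 10.4 CPM in LPS libraries, against 1.03, 0.881, 0.393 and 0.585 CPM in control libraries. The lowest LPS library lay well above the highest control library, and the log2 fold change was 3.76 (SE 0.32, adjusted p = 1.02e-07). Itgb7 had 1.13, 1.98, 2.55, 1.71 and 2.63 CPM in LPS libraries, against 1.03, 0.649, 0.442 and 0.585 CPM in control libraries. The groups came close to each other, LPS replicate 1 lying just above control replicate 1, and the log2 fold change was 1.54 (SE 0.32, adjusted p = 0.00264).

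The antibody genes differed in size of change. Igkc had 0.893, 1.51, 2.39, 1.61 and 2.09 CPM in LPS libraries, against 0.406, 0.0927, 0.393 and 0.376 CPM in control libraries, with a rise of 2.39 (log2; SE 0.43; adjusted p = 0.000682). Ighm had 18.3, 19.2, 29.7, 20.4 and 26.2 CPM in LPS libraries, against 7.50, 10.9, 12.9 and 11.4 CPM in control libraries. The heavy chain gene had 203 to 723 counts in each of these libraries and the smallest rise of the 9 genes, 1.09 on the log2 scale (SE 0.25, adjusted p = 0.00635). Its value in the bulb-poor libraries was 0.88 and was not called (adjusted p = 0.239). Igkc overlaps the gene model Gm30211, which held 4 counts over all libraries, and reads of immunoglobulin constant genes may be split among near-identical copies.

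Scaled by length (CPM per kb of the GENCODE M21 exon union), levels in LPS libraries were 12.1 ± 2.63 for Ighm (SD, n = 5, as for the values that follow). Gzma at 3.67 ± 0.873 and Igkc at 3.19 ± 1.08 came next and did not differ beyond their spread. Itgal followed at 1.52 ± 0.450, then Nkg7 at 0.942 ± 0.262 and Itgb7 at 0.722 ± 0.224, which again lay within their spread of each other. Gzmb at 0.428 ± 0.158, Klrd1 at 0.359 ± 0.0829 and Prf1 at 0.312 ± 0.137 formed a group with overlapping spreads, and Cd3e was lowest at 0.0648 ± 0.0398. In control libraries Ighm stood at 5.66 ± 1.21 CPM per kb (SD, n = 4, as for the next value) and Igkc at 0.596 ± 0.282. Ighm was thus far above its light chain partner in both groups. Cd79a and Cd79b, which encode the signalling chains of the B cell receptor, had levels per length of 0.357 ± 0.146 and 0.904 ± 0.137 in LPS libraries and of 0.270 ± 0.0478 and 0.306 ± 0.0564 in control libraries (SD, n = 5 and 4).

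Further genes of the same cells followed the members in part. In an NK and cytotoxic list of 28 genes, 18 were tested and 12 were called higher after LPS (median log2 fold change 2.45). Without the members, 7 of 13 tested were called: Il2rb, the beta chain of the IL-2 and IL-15 receptors (3.51, SE 0.30), Cd244a, an activating receptor (4.61, SE 0.58), the NK receptor genes Klrb1c (2.94, SE 0.55), Klra8, Ncr1 and Klrk1, and Cst7, a cystatin gene that microglia can also express. Klra8 belongs to a family of near-identical copies, and its value is uncertain for that reason. Of the genes just named, all but Cst7 stayed below the filter level in every sedanolide and control library. The filter thus in part fixed their direction as well, and counts and medians of the marker lists are given as a description. Klrc1, the NKG2A partner of CD94, was below the filter at 0.322 CPM ± 0.0767 in LPS (SD, n = 5) and 0.0301 CPM ± 0.0365 in control libraries (SD, n = 4) and was called higher by DESeq2, which was run without that filter. H2-T23, which encodes the ligand of that pair, was called higher by edgeR (0.97, SE 0.11, adjusted p = 4.34e-06).

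T cell genes were tested in 11 of 22 cases. The 2 called by edgeR, Cd8a (2.65, SE 0.72, adjusted p = 0.0202) and Cd4 (1.29, SE 0.37, adjusted p = 0.0308), encode the co-receptors of T cells, which some NK cells, dendritic cells and macrophages also carry. Cd8a reached at most 0.125 CPM in control and 0.0489 CPM in sedanolide libraries, under the filter level, so the filter in part fixed its direction. The median of the list was 0.40. Cd3d, Cd3g and Cd247, the other chains of the CD3 complex, were below the filter like Cd3e, with means of 0.295, 0.344 and 0.298 CPM in LPS libraries and 0.0644, 0.0774 and 0.0429 CPM in control libraries. DESeq2 called 4 T cell genes higher, Cd3g and Cd247 along with Cd4 and Cd8a. Of 28 B and plasma cell genes 15 were tested, with 6 called higher and 1 lower. Besides Igkc and Ighm these were Cd22, an inhibitory receptor (3.53, SE 0.36), which microglia can also carry, Ms4a1, which encodes CD20 (2.08, SE 0.41), Cd79b (1.56, SE 0.29) and the adaptor gene Blnk (0.99, SE 0.22), while Derl3, a gene of protein quality control, was lower. Cd22 reached at most 0.418 CPM in control and 0.222 CPM in sedanolide libraries, so the filter in part fixed its direction too. Cd79a (0.41, SE 0.37, adjusted p = 0.545) and Jchain, the joining chain of IgM (1.01, SE 0.60, adjusted p = 0.32), were not called.

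Genes that load and release granules were called higher in 7 of 11 cases, among them Ctsc (1.36, SE 0.13), whose protease activates granzymes, and Srgn (0.80, SE 0.17), whose proteoglycan packs them. These genes are widely expressed in myeloid cells and are not particular to lymphocytes. Of 7 tested integrin partners and ligands 5 were called higher, with Itgb2, the partner chain of Itgal, at 34.3 CPM ± 4.81 in LPS and 6.79 CPM ± 1.31 in control libraries (SD, n = 5 and 4; 2.34, SE 0.16). Its ligand genes Icam1 (1.95, SE 0.25) and Icam2 (0.78, SE 0.21) were also called, as was Itga4 (0.91, SE 0.23), a partner of Itgb7. Vcam1, a ligand of alpha-4 integrins, was not called (0.39, SE 0.14, adjusted p = 0.0793), and Itgae and Madcam1, a partner and a ligand of the beta-7 chain, were below the filter. Of 14 recruitment genes 6 were called higher, led by the chemokine gene Ccl5, at 20.8 CPM ± 9.97 in LPS and 0.141 CPM ± 0.109 in control libraries (SD, n = 5 and 4). Cxcr6, a chemokine receptor of T and NK cells, and its ligand gene Cxcl16 were called too (2.16, SE 0.58, and 1.70, SE 0.28). Of 13 lymphocyte cytokine receptor and ligand genes 5 were called higher, Il2rb and Il2rg among them.

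Markers of other cells moved in the same comparison. Of 11 neutrophil genes tested, 10 were called higher, and the list summed to 73.3 to 79.0 CPM in LPS and 9.02 to 14.9 CPM in control libraries, where Stfa1 was at 0. Of 11 circulating monocyte genes, a list that holds Itgal, 9 were called higher (8 of 10 without Itgal), with sums of 62.1 to 94.1 CPM in LPS and 32.1 to 50.6 CPM in control libraries and no marker at 0. Markers of red blood cells went the other way, at 2.63 to 182 CPM in LPS and 193 to 290 CPM in control libraries, with 1 of 6 called lower and none at 0. NK and cytotoxic genes without Tbx21 summed to 15.9 to 21.6 CPM in LPS and 4.13 to 6.50 CPM in control libraries. Tbx21 was left out because it followed the bulb, at 3.17 to 17.9 CPM in the 7 bulb-rich and 0 to 0.31 CPM in the 12 bulb-poor libraries. B and plasma cell genes summed to 50.2 to 63.0 CPM in LPS and 28.8 to 32.0 CPM in control libraries, where Ighg1, Ighg3 and Iglc3 were at 0. The member Ighm alone held 22.8 CPM of these sums in LPS and 10.7 CPM in control libraries on average. T cell genes summed to 13.2 to 24.1 CPM in LPS and 9.20 to 24.6 CPM in control libraries. Trbc2 made up the largest share of these sums on average, at 7.78 CPM in LPS and 9.02 CPM in control libraries. The sums therefore say little about the CD3 chains, whose means are given above. Microglial genes summed to 916 to 1100 CPM in LPS and 473 to 643 CPM in control libraries, with 6 of 10 called higher and none at 0. The part of these cell types in the members' values was not tested.

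**Figure D2:**
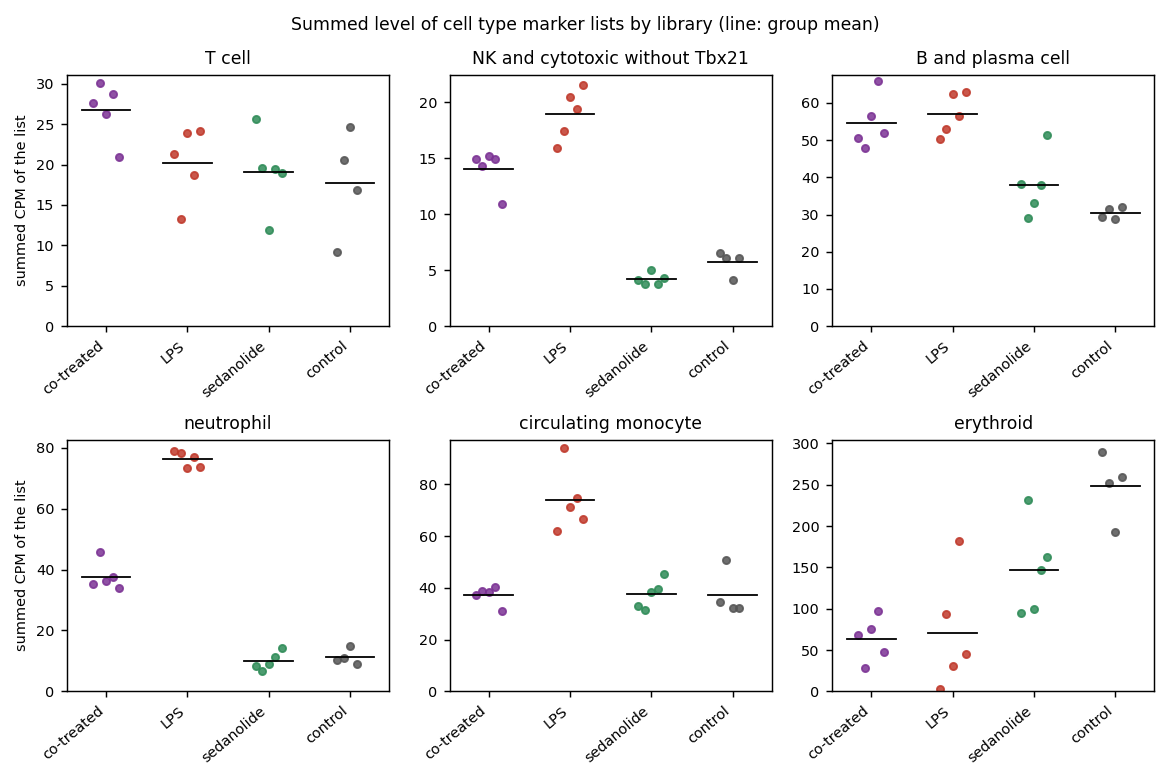
Summed CPM of 6 marker lists in every library (linear axes from 0), with points for libraries, a line for the group mean, and co-treated (n = 5), LPS (n = 5), sedanolide (n = 5) and control (n = 4) from left to right. Neutrophil sums were 34.0 to 45.8 CPM in co-treated and 73.3 to 79.0 CPM in LPS libraries, and sums of NK and cytotoxic genes without Tbx21 were 10.9 to 15.2 CPM in co-treated and 15.9 to 21.6 CPM in LPS libraries. On average over a group, Trbc2 made up the largest share of the T cell sums.

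Co-treated libraries were set against LPS libraries to ask whether these genes differed when sedanolide was given with LPS. Of the 9 tested genes 2 were called lower, Itgal and Igkc, and 0 higher, beside 1.97% of all genes (1.68% called lower). An unadjusted p below 0.05 was found for 5 of the 9, beside 3508 of all 17757 genes tested. DESeq2 also called 2 of the 9 members to which it gave an adjusted p, beside 911 genes in all. The median log2 fold change of the 9 genes was -0.65, against -0.01 over all genes tested. Prf1 was above the filter level in 4 LPS libraries and 1 co-treated library, and Gzmb in 4 LPS and 2 co-treated libraries. The filter thus in part favoured lower values of these genes, and the median and the 5 of the 9 are given as a description. The LPS libraries also serve in the comparison of LPS with control, so the 2 results are not independent.

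Itgal had 2.06, 2.02, 2.07, 2.70 and 1.85 CPM in co-treated libraries, against 5.45, 13.6, 10.9, 9.48 and 10.4 CPM in LPS libraries. The co-treated libraries were tightly grouped, and the highest of them lay below the lowest LPS library. The log2 fold change was -2.22 (SE 0.26, adjusted p = 0.000165), a level of 0.215 of that in LPS libraries. It remained called within the bulb-poor libraries, where it was -1.87 (adjusted p = 0.00615), and with a bulb index as covariate, where it was -1.86 (adjusted p = 0.00126). Igkc had 0.596, 0.572, 0.423, 0.708 and 0.474 CPM in co-treated libraries, against 0.893, 1.51, 2.39, 1.61 and 2.09 CPM in LPS libraries. Its groups did not overlap either, and its log2 fold change was -1.60 (SE 0.37, adjusted p = 0.0304).

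The Igkc call did not hold in 7 of 19 leave-one-out fits, those without co-treated replicate 1, 2, 3 or 5 or LPS replicate 2, 3 or 4, where the log2 fold change was between -1.65 and -1.45 and the adjusted p reached 0.0905. It was also lost in the bulb-poor libraries (-1.39, adjusted p = 0.331), with the bulb index (-1.39, adjusted p = 0.158) and with the replicate number as a block (-1.55, adjusted p = 0.0987). Those fits called fewer genes of all kinds, 35, 102 and 145 in that order, against 350 in the main fit.

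The other members had smaller differences, and none of these was called. Gzma had 2.70, 2.55, 2.68, 2.43 and 1.38 CPM in co-treated libraries, and its 5 LPS values ran from 2.59 to 4.85 CPM. Co-treated replicates 1 and 3 lay within the LPS range, and the log2 fold change was -0.65 (SE 0.25, adjusted p = 0.169). Prf1 had 0.458, 0.352, 0.235, 0.442 and 0.388 CPM in co-treated libraries, against 0.429 to 1.29 CPM in LPS libraries. The highest co-treated libraries reached the lowest LPS libraries, and the value was -1.10 (SE 0.35, adjusted p = 0.115), but -0.20 with the bulb index. Itgb7 had 0.871, 0.880, 1.5, 1.5 and 1.03 CPM in co-treated libraries, against 1.13 to 2.63 CPM in LPS libraries, a log2 fold change of -0.79 (SE 0.28, adjusted p = 0.149).

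For Gzmb, Nkg7 and Klrd1 the co-treated libraries ran through much of the LPS range. Gzmb had 0.458, 0.396, 0.611, 0.398 and 0.388 CPM in co-treated libraries, all within the LPS range, and a log2 fold change of -0.45 (SE 0.39, adjusted p = 0.517), but 0.07 in the bulb-poor libraries and 0.17 with the bulb index. Nkg7 had 1.05, 0.704, 0.470, 0.752 and 0.560 CPM in co-treated libraries and a log2 fold change of -0.27 (SE 0.35, adjusted p = 0.671). Klrd1 had 0.458, 0.352, 0.658, 0.487 and 0.259 CPM in co-treated libraries and a log2 fold change of -0.05 (SE 0.34, adjusted p = 0.94), and 0.14 in the bulb-poor libraries. From pooled counts, the co-treated to LPS ratio of Klrd1 was 0.961 (95% exact interval 0.634 to 1.46, counting error only), that of Nkg7 was 0.835 (0.609 to 1.14) and that of Gzmb was 0.728 (0.494 to 1.07). These intervals do not show that the groups were alike, since each also holds ratios well below 1. For Gzma the ratio was 0.63 (0.537 to 0.739), for Prf1 0.459 (0.31 to 0.67) and for Itgb7 0.577 (0.46 to 0.721). The intervals of Gzma, Prf1 and Itgb7 lay wholly below 1, but they leave out the spread among replicates, and none of these genes was called.

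Ighm had 22.5, 19.3, 25.1, 33.7 and 21.6 CPM in co-treated libraries, against 18.3 to 29.7 CPM in LPS libraries. The 2 groups overlapped along most of their range, with a log2 fold change of 0.10 (SE 0.23, adjusted p = 0.822). Cd3e had 0.321, 0.176, 0.188, 0.0885 and 0.302 CPM in co-treated libraries, and its mean differed from that of LPS libraries by -0.0494 CPM (exact permutation p = 0.571, two-sided, smallest possible 0.00794).

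**Figure D3:**
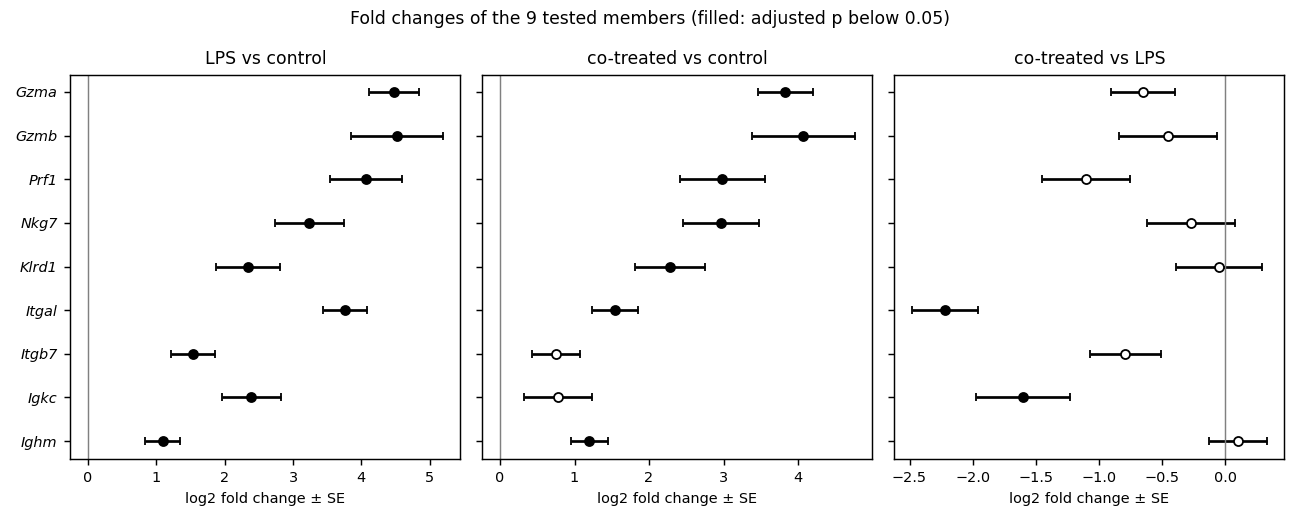
Log2 fold change with its SE (bars) for the 9 tested genes in LPS against control, co-treated against control and co-treated against LPS, with filled points for an adjusted p below 0.05. All 9 points are filled for LPS against control, 7 for co-treated against control, and those of Itgal (-2.22) and Igkc (-1.60) for co-treated against LPS.

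Ratios of gene pairs within a library were compared between these groups, since they do not depend on the library total. The pairs were chosen after the values were seen. The 4 ratios were tested with two-sided exact permutation tests, for which 0.00794 is the smallest possible p. Each pair holds Itgal or Igkc, the 2 genes called lower, so these p-values are a description and add no support to those calls. The log2 ratio of Itgal to Gzma counts was -0.10 ± 0.37 in co-treated and 1.40 ± 0.42 in LPS libraries (SD, n = 5 each; exact permutation p = 0.00794, 0.0106 adjusted over the 4). The ratio of Itgal to Itgb2, the chains of LFA-1, was -3.44 ± 0.15 in co-treated and -1.83 ± 0.43 in LPS libraries (SD, n = 5 each; exact permutation p = 0.00794, adjusted 0.0106). Itgb2 itself was at 23.3 CPM ± 2.14 in co-treated and 34.3 CPM ± 4.81 in LPS libraries (SD, n = 5 each), a called log2 fold change of -0.56 (SE 0.14, adjusted p = 0.0491). The log2 fold change of Itgal in the same comparison was -2.22 (SE 0.26). The ratio of Igkc to Ighm was -5.40 ± 0.31 in co-treated and -3.77 ± 0.31 in LPS libraries (SD, n = 5 each; exact permutation p = 0.00794, adjusted 0.0106). The ratio of Igkc to Gzma was -2.02 ± 0.42 in co-treated and -1.15 ± 0.25 in LPS libraries (SD, n = 5 each; exact permutation p = 0.0159, adjusted 0.0159).

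**Figure D4:**
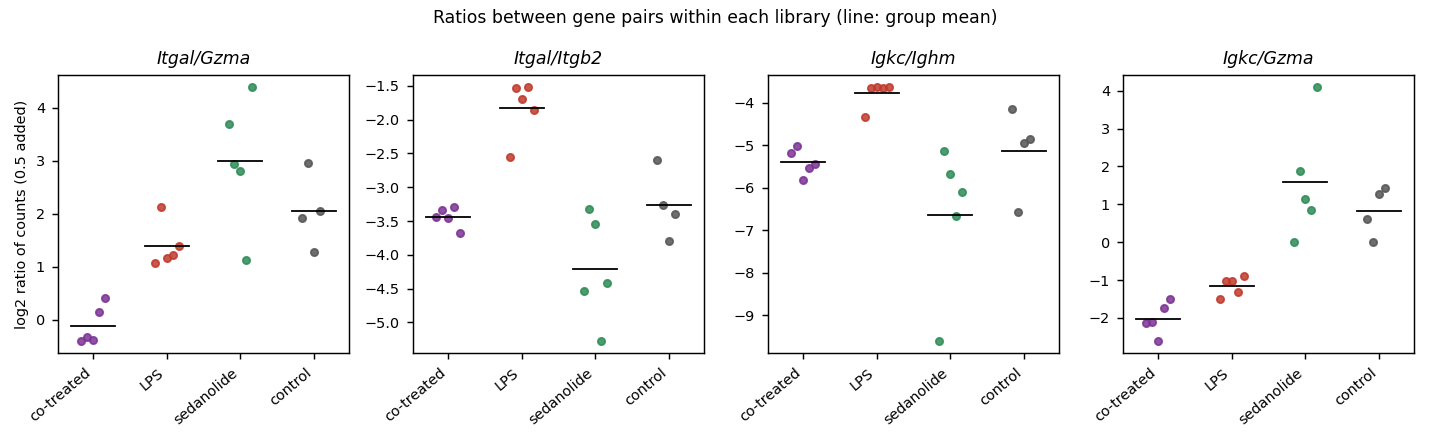
Log2 ratio of the counts of 4 gene pairs in every library (0.5 added to each count), with points for libraries, a line for the group mean, and co-treated (n = 5), LPS (n = 5), sedanolide (n = 5) and control (n = 4) from left to right. For Itgal to Itgb2 the co-treated mean was -3.44 and the LPS mean -1.83, with no overlap, and values from sedanolide and control libraries rest on few counts.

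Of 11 tested T cell genes edgeR called 0 between co-treated and LPS libraries (median 0.21), with 2 at an unadjusted p below 0.05 and 1, Cd6, called higher by DESeq2. Of 18 tested NK and cytotoxic genes edgeR called 0 (median -0.40), with 6 at an unadjusted p below 0.05 and 1, Cd244a, called lower by DESeq2. Of 15 tested B and plasma cell genes Igkc was the 1 called. Cd22 (-0.11, SE 0.27), Cd79b (0.10, SE 0.24), Il2rb (-0.36, SE 0.22) and Ccl5 (0.30, SE 0.28) were not called, with adjusted p-values of 0.833, 0.845, 0.354 and 0.544. Cd244a was at 0.459 CPM ± 0.212 in co-treated and 1.19 CPM ± 0.360 in LPS libraries (SD, n = 5 each), which did not overlap but missed the threshold (-1.37, SE 0.38, adjusted p = 0.0667). Genes called lower were Srgn (-0.68), Ctsc (-0.54), Serpinb9 (-0.59), an inhibitor of granzyme B, and Stx11 (-1.58), a syntaxin of granule release, in the list of 11 granule genes. Icam1 (-1.07, SE 0.22) and Itgb1 (-0.38, SE 0.09) were called lower together with Itgb2 among 7 integrin partners and ligands. Il2rg (-1, SE 0.17), the common chain of several interleukin receptors, was the 1 of 13 cytokine receptor and ligand genes called.

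Markers of other cells moved with Itgal and Igkc in this comparison. Of 11 neutrophil genes 7 were called lower (median -1.60), with sums of 34.0 to 45.8 CPM in co-treated and 73.3 to 79.0 CPM in LPS libraries, and of 11 circulating monocyte genes 7 were called lower (6 of 10 without Itgal), with sums of 31.1 to 40.4 CPM in co-treated and 62.1 to 94.1 CPM in LPS libraries. No marker of either list was at 0 in these groups. T cell sums, of which Trbc2 made up the largest share (13.2 CPM in co-treated and 7.78 CPM in LPS libraries on average), at 20.9 to 30.1 CPM in co-treated and 13.2 to 24.1 CPM in LPS libraries, and B and plasma cell sums, at 48.0 to 65.8 CPM in co-treated and 50.2 to 63.0 CPM in LPS libraries, overlapped. Ighm alone held 24.4 CPM of the B and plasma cell sums in co-treated and 22.8 CPM in LPS libraries on average. NK and cytotoxic sums did not overlap, at 11.1 to 15.5 CPM in co-treated and 16.1 to 26.2 CPM in LPS libraries, or 10.9 to 15.2 CPM in co-treated and 15.9 to 21.6 CPM in LPS libraries without Tbx21. Microglial genes summed to 864 to 1140 CPM in co-treated and 916 to 1100 CPM in LPS libraries, and 0 of 10 were called by either edgeR or DESeq2, with 0 at an unadjusted p below 0.05. Genes of border macrophages, which live in meninges and around vessels, summed to 10.9 to 20.8 CPM in co-treated and 20.4 to 58.7 CPM in LPS libraries, with 4 of 8 called lower and none at 0. Their sums were 58.7, 42.1 and 46.7 CPM in the 3 bulb-rich LPS libraries and 22.9 and 20.4 CPM in the 2 bulb-poor LPS libraries. No co-treated library was bulb-rich. Genes of meningeal fibroblasts summed to 58.7 to 79.6 CPM in co-treated and 60.4 to 225 CPM in LPS libraries, with none at 0. The bulb-rich LPS libraries held 214, 136 and 225 CPM of them and the bulb-poor LPS libraries 82 and 60.4 CPM. Of the 9 meningeal fibroblast genes edgeR called 0, with 8 at an unadjusted p below 0.05 and 4 called lower by DESeq2. Genes of the choroid plexus summed to 2.79 to 4.17 CPM in co-treated and 2.47 to 10.3 CPM in LPS libraries, with none at 0. Of the 5 tested, 1, Clic6, was called lower (-2.35, SE 0.59, adjusted p = 0.0457), and 4 had an unadjusted p below 0.05. The part of neutrophils, monocytes, NK cells, border macrophages, meninges and choroid plexus in the Itgal and Igkc differences was not tested.

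The genes whose pattern over the 19 libraries was most like that of Itgal and Igkc were also genes known from other cells. By Pearson's r of log2 CPM, Itgal was closest to Igfbp7, Cytip and Arpc1b (0.969 each), and Igkc to the myeloid receptor genes Cd300lf (0.938), Clec12a (0.92) and Cd300lb (0.908). Gzma was closest to the class I genes H2-K1 (0.986) and H2-D1 (0.983) and to Rab32 (0.975), and Nkg7 to Epsti1 (0.969), B2m (0.968) and Fcgr2b (0.967). With each group centred on its own mean, r was 0.653, 0.775 and 0.73 for the 3 genes near Itgal and 0.556, 0.542 and 0.308 for the 3 near Gzma. These correlations describe 19 libraries that share the group differences, and H2-K1 and H2-D1 have near-identical copies.

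The comparison of co-treated with control libraries asked which of the genes still stood above the saline level when both agents were given. It shares the control libraries with the comparison of LPS with control, so the 2 results are not independent. Of the 9 tested genes 7 were called higher and 0 lower, beside 11.1% of all genes. Gzma, Gzmb, Prf1, Nkg7 and Klrd1, all among these 7, entered the test only through the LPS-injected groups. The filter in part fixed their direction, and the count is given as a description. Values against control stood at 3.83 for Gzma (SE 0.37), 2.96 for Nkg7 (SE 0.51), 2.98 for Prf1 (SE 0.57) and 2.28 for Klrd1 (SE 0.47). Gzmb had 50 counts in co-treated and 2 in control libraries, a ratio of 20.8 (95% exact interval 5.47 to 177, counting error only). Itgal was higher by 1.54 (SE 0.31, adjusted p = 0.00379), with all 5 co-treated libraries above all 4 control libraries, and Ighm by 1.20 (SE 0.25, adjusted p = 0.00515). Klrd1 (2.13, adjusted p = 0.112) and Ighm (1.03, adjusted p = 0.114) were not called in the bulb-poor libraries. Igkc (0.78, SE 0.46, adjusted p = 0.272) did not overlap between the groups but was not called, and Itgb7 (0.75, SE 0.32, adjusted p = 0.135) was not called.

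Sedanolide without LPS was compared with control. Of the 9 tested genes 0 were called by edgeR, beside 5.31% of all genes. DESeq2, which gave an adjusted p to 4 members, called 1, Ighm, beside 1895 genes in all. An unadjusted p below 0.05 was found for 4 of the 9, beside 4414 of all 17757 genes tested. Gzma had 0, 0.0489, 0.0889, 0.0839 and 0 CPM in sedanolide libraries, against 0.259, 0.0927, 0.147 and 0.125 CPM in control libraries. All 5 sedanolide libraries lay below the 4 control libraries, with 5 counts in all sedanolide and 15 in all control libraries, and the log2 fold change was -1.71 (SE 0.60, adjusted p = 0.0941). Prf1 had 0 counts in the 5 sedanolide libraries, which allows up to 3 counts over the group, and 4 in control libraries, and Nkg7 had 1 in sedanolide and 8 in control libraries. At this depth, differences of these genes below the control level were at the edge of detection. Some markers of the brain's borders were also lower in sedanolide libraries. Meningeal fibroblast genes summed to 50.9 to 77.7 CPM in sedanolide and 56 to 186 CPM in control libraries, with 2 of 9, Dcn and Lum, called lower and 8 at an unadjusted p below 0.05. Border macrophage genes summed to 10.9 to 17.3 CPM in sedanolide and 10.7 to 32.3 CPM in control libraries, with 1 of 8, Ms4a7, called lower and 7 at an unadjusted p below 0.05. No gene of either list was at 0, and the part of these cells in the members' values was not tested.

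Of the 9 genes 3 had a positive value, namely Ighm, Gzmb and Klrd1. Ighm had 17.7, 9.49, 12.5, 19.3 and 26.4 CPM in sedanolide libraries, against 7.50 to 12.9 CPM in control libraries. Sedanolide replicates 1, 4 and 5 lay above the control range and the other 2 within it, and the log2 fold change was 0.68 (SE 0.25, adjusted p = 0.104 by edgeR and 0.0488 by DESeq2). Without sedanolide replicate 2 the edgeR value was 0.83 (adjusted p = 0.041). Gzmb had 4 counts in sedanolide and 2 in control libraries (0.63, SE 1.01, adjusted p = 0.734), and Klrd1 had 10 in sedanolide and 8 in control libraries (0.06, SE 0.58, adjusted p = 0.964), so neither differed beyond its error. Nkg7 passed the threshold without control replicate 4 (-2.99, adjusted p = 0.0451). Igkc had 0, 0.245, 0.222, 0.168 and 0.365 CPM in sedanolide libraries, Itgal 0.275, 0.538, 0.756, 0.210 and 0.457 CPM, and Itgb7 0.275, 0.391, 0.845, 0.587 and 0.548 CPM. Their log2 fold changes against control were -0.67 (SE 0.52), -0.71 (SE 0.36) and -0.36 (SE 0.34), and none was called. Of the marker lists, Gzmc, Ifng, Klra8, Klrb1c and Prf1 among 28 NK and cytotoxic genes, Ighg1, Iglc1 and Iglc2 among 28 B and plasma cell genes, and Ly6g among 14 neutrophil genes were at 0 in all sedanolide libraries.

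The comparison of co-treated with sedanolide libraries asked what LPS injection changed in mice that received sedanolide. Of the 9 tested genes 7 were called higher and 0 lower by edgeR, beside 5.58% of all genes. DESeq2, which gave an adjusted p to 10 members, called 8, with Igkc added, beside 1183 genes in all. Here too the filter in part fixed the direction of Gzma, Gzmb, Prf1, Nkg7 and Klrd1, and the count is given as a description. Gzma was higher by 5.53 (SE 0.42, adjusted p = 3.7e-08), Itgal by 2.25 (SE 0.31, adjusted p = 6.81e-05) and Klrd1 by 2.22 (SE 0.43, adjusted p = 0.00228). Prf1, with 42 counts in co-treated and 0 in sedanolide libraries, was at least 13.9-fold higher, taking the limit of 3 counts over the group, and the 95% exact lower limit of its count ratio was 10.8. Nkg7, with 79 counts in co-treated and 1 in sedanolide libraries, had a ratio of 78.2 (95% exact interval 13.6 to 3130, counting error only), and Gzmb, with 50 counts in co-treated and 4 in sedanolide libraries, of 12.4 (4.54 to 47.2). Cd3e had 24 counts in co-treated and 3 in sedanolide libraries, a ratio of 7.92 (2.41 to 41.1). Itgb7 was higher by 1.12 (SE 0.31, adjusted p = 0.0411), a call that was lost in 8 of 19 leave-one-out fits, with the adjusted p reaching 0.123. Those were the fits without co-treated replicate 3 or 4, LPS replicate 4, sedanolide replicate 1, 2, 4 or 5, or control replicate 5. Igkc (1.45, SE 0.46, adjusted p = 0.0816) did not overlap between the groups but was not called by edgeR (DESeq2 gave 1.47, adjusted p = 0.0296), and Ighm (0.51, SE 0.23, adjusted p = 0.265) overlapped.

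The interaction asked whether the difference made by sedanolide in LPS-injected mice was unlike that in saline-injected mice. Of the 9 genes 0 were called by edgeR, beside 0.586% of all genes. DESeq2, which gave an adjusted p to 4 members, called 1, Itgal, beside 441 genes in all. An unadjusted p below 0.05 was found for 2 of the 9, beside 2821 of all 17757 genes tested. For Itgal the sedanolide difference was lower with LPS by 1.5 on the log2 scale, an interaction of -1.5 (SE 0.45, edgeR adjusted p = 0.13), and DESeq2 gave -1.49 (adjusted p = 0.0382). Igkc had an interaction of -0.94 (SE 0.66, adjusted p = 0.52), Gzma of 1.05 (SE 0.63, adjusted p = 0.442) and Ighm of -0.58 (SE 0.34, adjusted p = 0.426). Nkg7, the other gene with an unadjusted p below 0.05, had a positive interaction of 2.37 (SE 0.99, unadjusted p = 0.0279, adjusted p = 0.25), and Prf1 had one of 2.01 (SE 0.96, adjusted p = 0.35). Both rest on the sedanolide libraries, which held 1 Nkg7 count and 0 Prf1 counts, so their fitted size depends on the small count that edgeR adds. The lowering of Itgal and Igkc in co-treated against LPS libraries was thus not shown by edgeR to differ from the change that sedanolide made without LPS.

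In the coordinates of the deposited table, whose genome build is not given in the sources used here and which differ from those of the promoters above, Itgal (ENSMUSG00000030830) lies on chromosome 7 from 126895432 to 126934310 and Igkc (ENSMUSG00000076609) on chromosome 6 from 70703419 to 70703950. Gzma (ENSMUSG00000023132) lies on chromosome 13 from 113230359 to 113237515 and Ighm (ENSMUSG00000076617) on chromosome 12 from 113382178 to 113386350. None of Itgal, Gzma, Gzmb, Nkg7, Prf1, Klrd1, Ighm and Itgb7 overlaps another gene model of the table.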

How the data were processed

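Bulk mRNA of the medial prefrontal cortex was measured in 19 libraries. The deposited table holds whole-number counts per gene, not normalized, with 0 columns left unmatched to a sample. Libraries were poly(A)-selected and strand-marked, per the labels' protocols, and fastp, HISAT2, StringTie, RSEM and DESeq2 are named in the submitters' processing notes without versions. The counting tool's strand setting and the genome build are not given in the sources used here. A control replicate 3 was not analysed here.

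From these counts, edgeR 4.0.16 in R 4.3.3 was run with TMM library factors, its default expression filter by group (17757 genes kept), and robust quasi-likelihood testing, in 1 model of all 19 libraries with a mean per group. Tests were two-sided with Benjamini-Hochberg adjustment across the whole set of genes in a comparison, and genes were called at an adjusted p below 0.05. SE is the absolute log2 fold change over the square root of F. Cd3e was tested by exact permutation. Ratios of pooled counts carry exact conditional binomial intervals at 95%, which cover counting error only. A count of 0 was given a limit of 3 counts over the group. In counts simulated from the overall mean of each gene, the fit recovered most of the larger known changes. That simulation held no uneven share of bulb-rich libraries and no genes near 0 in some groups only, so it does not test these features.

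The members, gene lists and alternatives were chosen with earlier results of these data known. Named beyond the 10 members were their known partner chains and ligands, up to 4 called genes of each list with the smallest p, and the 3 genes most like Itgal, Gzma, Nkg7 and Igkc. Other genes named beside them, such as Cd6, Cxcl16 and border markers, were chosen after their values were seen. Replicates of a group differed by more than sampling noise in all 36 pairs (chi-square per degree of freedom 2.47 to 114). Alternatives were other library factors, other filters, DESeq2 1.42.0, a replicate-number block, a fit of only the groups compared, a bulb index as covariate, bulb-poor libraries and leaving out each library.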

Additional observations from a re-analysis of the deposited data

Results flagged for a closer look

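Of 39 combinations of a member and a group, 4 held a library far from the others of its group by Dixon's criterion, which chance alone meets in about 1 of 20 groups. Itgal stood at 2.70 CPM in co-treated replicate 4, and the nearest other co-treated library stood at 2.07 CPM. Gzma stood at 1.38 CPM in co-treated replicate 5, where the nearest was 2.43 CPM. Nkg7 stood at 0.0445 CPM in sedanolide replicate 3, from 1 count, and the other 4 sedanolide libraries had 0. Igkc stood at 0.0927 CPM in control replicate 2, from 2 counts, and the nearest control library stood at 0.376 CPM. Without co-treated replicate 4 the Itgal difference from LPS libraries was still called, and without co-treated replicate 5 that of Gzma was still not called.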

How the results depend on the processing

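The Itgal call for co-treated against LPS held under all 9 other settings (log2 fold change -2.23 to -1.86) and in 19 of 19 leave-one-out fits (-2.37 to -2.08). Requiring 1 CPM in 4 libraries left 5 members to test, and 5 were called for LPS against control, 3 for co-treated against control and 3 for co-treated against sedanolide. Over all genes, 1868, 2006 and 927 were called there, against 1938, 1965 and 990 in the main fit. With only the groups compared in the fit, 4 were called for co-treated against control (6 tested) and 4 for co-treated against sedanolide (5 tested), beside 1369 and 995 of all genes. DESeq2 called 1 for sedanolide against control and 1 for the interaction, beside 1895 and 441 of all genes. For co-treated against LPS, 1 was called with the bulb index and 1 in bulb-poor libraries. Over all genes, 102 and 35 were called there, against 350 in the main fit. In bulb-poor libraries 8 members were tested, without Prf1 and Cd3e, and 6 were called for LPS against control and 4 for co-treated against control. All genes called there numbered 848 and 615. The cause of these changes was not tested where fewer genes or samples do not show it.

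With the replicate number as a block, 1 member was called for co-treated against LPS, as Igkc was lost (-1.55, adjusted p = 0.0987), and the block changed no other count of members called. Over all genes, 145 were called for co-treated against LPS with the block. Equal numbers share only a number: over 27 same-numbered pairs the correlation of deviations ran from -0.572 to 0.484 (median -0.0288), and 4 exceeded 0.1. Leaving out 1 library gave 8 to 9 members for LPS against control, 0 to 1 for sedanolide against control, 1 to 2 for co-treated against LPS, 6 to 7 for co-treated against control, 6 to 7 for co-treated against sedanolide and 0 for the interaction. The lower counts for LPS and co-treated against control came without LPS replicate 3, where Prf1 was not tested. For Cd3e, leaving out 1 library gave mean differences of 0.154 to 0.263 CPM for LPS against control and of -0.104 to 0.00504 CPM for co-treated against LPS, the sign turning without LPS replicate 5 (0.00504 CPM). All 4 within-library ratios kept their direction in fits that left out a library.

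Depth limits the members at low counts: Gzma, Gzmb, Nkg7, Prf1, Klrd1 and Cd3e held at most 10 counts in all libraries of the sedanolide group together, so their values there rest on few counts, and ratios to that group have wide intervals. The 4 or 5 libraries per group and the uneven share of bulb-rich libraries limit the other members.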

Other observations

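Vessel genes moved in the same libraries as the leukocyte integrin and its ligands. All 8 endothelial genes tested were called higher after LPS, among them Tie1 (1.29, SE 0.15), a receptor of endothelial cells, and Esam (1.17, SE 0.11), an adhesion gene of their junctions. The list summed to 584 to 733 CPM in LPS and 297 to 469 CPM in control libraries. In co-treated against LPS libraries, Tie1 (-0.78, SE 0.14, adjusted p = 0.00482) and Esam (-0.43, SE 0.10, adjusted p = 0.039) were called lower by edgeR and the other 6 were not, with sums of 429 to 557 CPM in co-treated and 584 to 733 CPM in LPS libraries. Among border macrophage genes, Ms4a7 was called higher after LPS (1.82, SE 0.32) and lower with sedanolide added to LPS (-1.16, SE 0.29, adjusted p = 0.0416), whereas Lyve1 was called lower after LPS (-1.14, SE 0.33, adjusted p = 0.0312).

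Dendritic cell genes, 7 of 8 of which were tested, gave 1 call in each direction after LPS: Bst2, an interferon-induced gene, was higher (0.85, SE 0.21), and Cd209a, a lectin receptor gene, was lower (-2.18, SE 0.46). Xcr1, which marks dendritic cells that present antigen to CD8+ T cells, was at 0 in every library of all 4 groups.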
